A study of Mus musculus with 8 samples.

Results

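*Atg7*, *Map1lc3a* and *Ulk1*, the autophagy mRNAs described here, were 3 of the 67 mRNAs measured in injured mouse knee joints. They were taken by name, with no measured value in the rule, and all 3 were found in the same panel of 34 target mRNAs, panel II. *Becn1*, of the same pathway and measured in that panel, was not in the set and is given beside it.

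The tissue came from 8 inbred mouse strains that had full-thickness injury of the articular cartilage at 8 weeks of age. Per the labels, LG/J, MRL/MpJ and the recombinant inbred line LGXSM-6 were healers, LGXSM-5 and LGXSM-35 were intermediate healers, and SM/J, C57BL/6J (written C57BL6/J in the labels) and LGXSM-33 were non-healers. The 4 LGXSM lines were bred from a cross of LG/J with SM/J, so each carries a mosaic of these 2 genomes, and MRL/MpJ descends in large part from LG/J. Signals were read with a bead-based branched DNA assay, in which probes on the mRNA build up a label without reverse transcription or amplification of the target, in homogenates of formalin-fixed, paraffin-embedded joint sections. No uninjured joint was among the samples, so each value is a level after injury and not a response to it.

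Autophagy is the route by which a cell encloses part of its own cytoplasm in a double membrane and delivers it to the lysosome. ULK1 is the protein kinase that starts it when nutrients run short, and Beclin 1, from *Becn1*, belongs to the lipid kinase complex that marks where the membrane grows. ATG7 is the E1-like enzyme that activates ATG12 and the LC3 proteins, and LC3A, from *Map1lc3a*, is one of the LC3 proteins that are then attached to lipid of the growing membrane. In articular cartilage, whose cells are long lived and rarely divide, autophagy is known as a maintenance process. An mRNA level does not measure autophagic flux.

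Each strain had 9 assay replicates in panel II, except LGXSM-6 and LGXSM-33 with 12, giving 78 in all. The sources used here do not say which of them came from the same mouse. Numbered in the order of the files, they were alike in threes. Blocks of 3 that began at Signal 1 held 88.7% of the within-strain variance of the log10 signal, as the median over the 34 mRNAs, against 10.96% and 18.2% for blocks that began at Signal 2 or Signal 3. For the normalized values the shares were 68.3%, 19.1% and 15.4%. A strain was therefore represented by 3 or 4 sets of like readings and not by 9 or 12 independent ones, and each test below is given over the assay replicates and again over the 26 means of 3. The study's methods state both biological and technical replicates and a number of mice per strain in the range of the number of these blocks, but no source used here ties a Signal to a mouse.

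Signals of *Atg7* ran from 15 to 241 with a median of 79.5, those of *Map1lc3a* from 23 to 566 with a median of 152, and those of *Ulk1* from 6 to 155.5 with a median of 43.5. The reference mRNAs *Gapdh* and *Hprt1* were not level across the strains. The median signal of *Gapdh* was lowest in C57BL/6J, at 1255, and highest in LGXSM-6, at 4346.5. That of *Hprt1* was lowest in SM/J, at 69, and highest in LGXSM-6, at 228. *Gapdh* encodes a glycolytic enzyme and *Hprt1* an enzyme of purine salvage. Normalized expression is what remains of the log10 signal after regression on these mRNAs, so that 0 is the value predicted from them. In that regression *Atg7* followed *Hprt1* (slope 0.558) and hardly *Gapdh* (slope 0.0236), and 62.9% of its variance was accounted for. *Map1lc3a* followed *Gapdh* (slope 0.861) and not *Hprt1* (slope −0.0535), with 91.0% accounted for. *Ulk1* was closer to *Hprt1* (slope 0.710) than to *Gapdh* (slope 0.171), with 91.7%.

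Sets of readings stood apart in 2 strains. Signals 4 to 6 of SM/J were low for the 3 autophagy mRNAs and both reference mRNAs. *Gapdh* was at 497, 346 and 361 there, against 3091 to 4576.5 in the other SM/J readings, and *Ulk1* was at 6, 6 and 7. Signals 10 to 12 of LGXSM-33 were high, with *Gapdh* at 8656, 9428 and 8825 against at most 4203 in the rest of that strain. Where leaving out either set ended a call or moved a value by over 1.5 times, the value without it is given beside the result.

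With the deposited values, *Atg7* had the largest share of its variance between strains among the 67 mRNAs. Its strain means spanned 1.28 on the log2 scale, a 2.42-fold range that was 9th of the 67 by size, where the median span was 0.54. In MRL/MpJ the 9 normalized values of *Atg7* ran from 0.117 to 0.299 with a median of 0.185. In C57BL/6J they ran from 0.0964 to 0.219 with a median of 0.176. Every reading of these 2 strains was above 0. The 12 values of LGXSM-33 ran from −0.0621 to 0.253 with a median of 0.0443, and the top 3 were Signals 10 to 12, at 0.215, 0.244 and 0.253. Without these 3 the order of the 8 strains was the same. SM/J values lay between −0.130 and 0.0849 (median −0.0243), LG/J values between −0.0931 and 0.0162 (median −0.0620) and LGXSM-6 values between −0.124 and 0.0287 (median −0.0776). At the bottom, LGXSM-35 ran from −0.187 to −0.105 (median −0.144) and LGXSM-5 from −0.285 to −0.137 (median −0.164). No reading of these 2 intermediate healers reached any reading of MRL/MpJ, C57BL/6J or LGXSM-33.

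**Figure D1:**
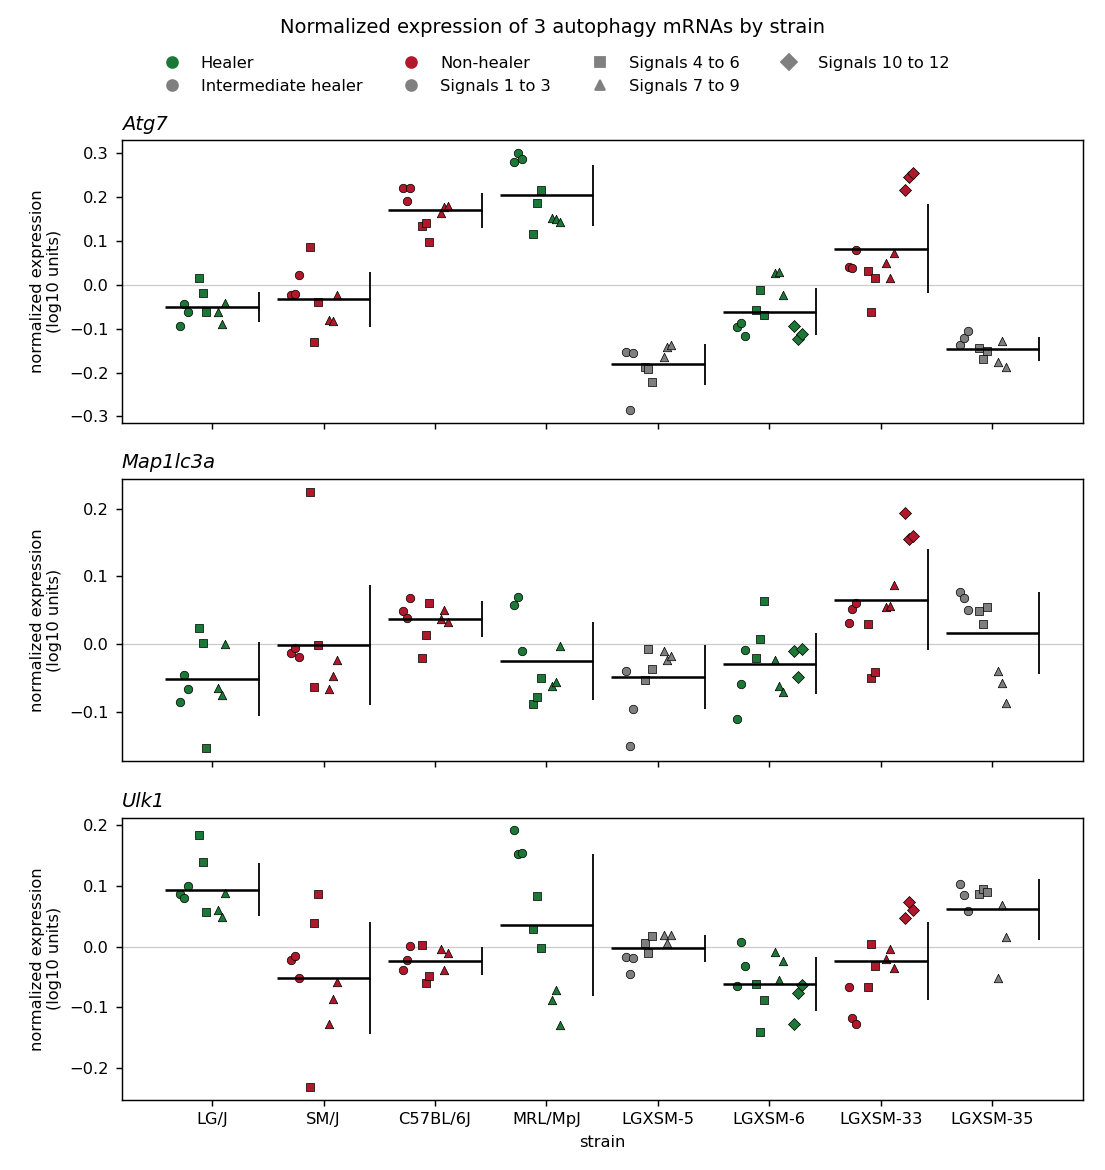
Normalized expression (log10 units, vertical axis) of *Atg7*, *Map1lc3a* and *Ulk1* in the 8 strains (horizontal axis). Each point is 1 assay replicate, the marker shape gives its block of 3 consecutive Signals, the colour gives the healing class, and the horizontal and vertical lines give the strain mean and SD. For *Atg7*, all readings of C57BL/6J and MRL/MpJ lie above 0 and all readings of LGXSM-5 and LGXSM-35 below −0.1. For *Map1lc3a* all strains overlap, for *Ulk1* all but 3 pairs that hold LG/J do, and blocks within 1 strain, such as those of MRL/MpJ for *Ulk1*, lie as far apart as strains do.

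By limma, 82.1% of the 67 mRNAs differed among the 8 strains over assay replicates at an adjusted *P* under 0.05, and all 3 autophagy mRNAs were among them. The adjusted *P* was 1.22e-23 for *Atg7* (rank 1 of 67), 0.000239 for *Map1lc3a* (rank 32) and 5.49e-06 for *Ulk1* (rank 23). With so many mRNAs past the threshold, these calls set none of the 3 apart. Over the means of 3, 19.4% of the mRNAs passed, 13 in number. The pattern of threes was examined in panel II alone, and in panel I, where LG/J and SM/J had 8 readings, the blocks taken by number may be shifted. Of the 34 mRNAs of panel II 23.5% passed over the means of 3, as did 5.15% of their pairs of strains. *Atg7* again had the smallest value of all (adjusted *P* = 4.78e-06). *Map1lc3a* and *Ulk1* did not pass (adjusted *P* = 0.234 and 0.119), nor did *Becn1* (adjusted *P* = 0.0971).

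With the deposited values, the share of variance between strains was 83.2% for *Atg7* (jackknife SE over strains 8.05), 38.5% for *Ulk1* (SE 18.6) and 29.6% for *Map1lc3a* (SE 14.0), against a median of 29.6% over the 67 mRNAs. *Becn1* had 47.0% (SE 24.6). Leaving out 1 strain at a time, the lowest share was 79.9% for *Atg7*, without MRL/MpJ, 25.4% for *Ulk1*, without LG/J, and 18.6% for *Map1lc3a*, without LGXSM-33. Taken apart into 3 levels, the variance of *Atg7* lay 80.0% between strains, 14.1% between blocks of the same strain and 5.88% within blocks. For *Ulk1* these shares were 29.2%, 40.5% and 30.3%, and for *Map1lc3a* 20.8%, 38.5% and 40.7%. The SD between blocks was of like size in the 3 mRNAs, at 0.19, 0.17 and 0.15 on the log2 scale for *Atg7*, *Ulk1* and *Map1lc3a*. The larger share of *Atg7* in the deposited values thus went with a wider spread between strains and not with blocks that were closer together. This order turned with the scaling. With the ratio of the signal to both reference mRNAs the share of *Map1lc3a* was above that of *Atg7*, as given with the processing below.

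Among the 28 pairs of strains, 23 differed in *Atg7* over assay replicates, where 29.5% of all 1876 pairs of the 67 mRNAs did. 12 of the 28 pairs differed over the means of 3, against 3.73% of all pairs. These 12 were MRL/MpJ and C57BL/6J each against LG/J, SM/J, LGXSM-6, LGXSM-5 and LGXSM-35, and LGXSM-33 against LGXSM-5 and LGXSM-35. The readings of 16 of the 28 pairs did not overlap, against 7.25% of all pairs. For the means of 3 this held in 20 pairs, against 20.8%. The 5 pairs that passed neither test were neighbours in level. They were MRL/MpJ with C57BL/6J (log2 difference 0.11, SE 0.10, adjusted *P* = 0.396), LGXSM-35 with LGXSM-5 (0.12, SE 0.10, adjusted *P* = 0.382), and SM/J, LG/J and LGXSM-6 with one another.

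MRL/MpJ exceeded LGXSM-5 in *Atg7* by 1.28 on the log2 scale (SE 0.10, adjusted *P* = 1.06e-18; over means of 3, SE 0.17, adjusted *P* = 3.45e-05). C57BL/6J exceeded LGXSM-5 by 1.16 (SE 0.10, adjusted *P* = 9.23e-17; over means of 3, adjusted *P* = 9.79e-05). The readings of both pairs were fully apart. MRL/MpJ exceeded LG/J, from which much of its genome descends, by 0.84 (SE 0.10, adjusted *P* = 4.44e-11; over means of 3, adjusted *P* = 0.00383).

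**Figure D2:**
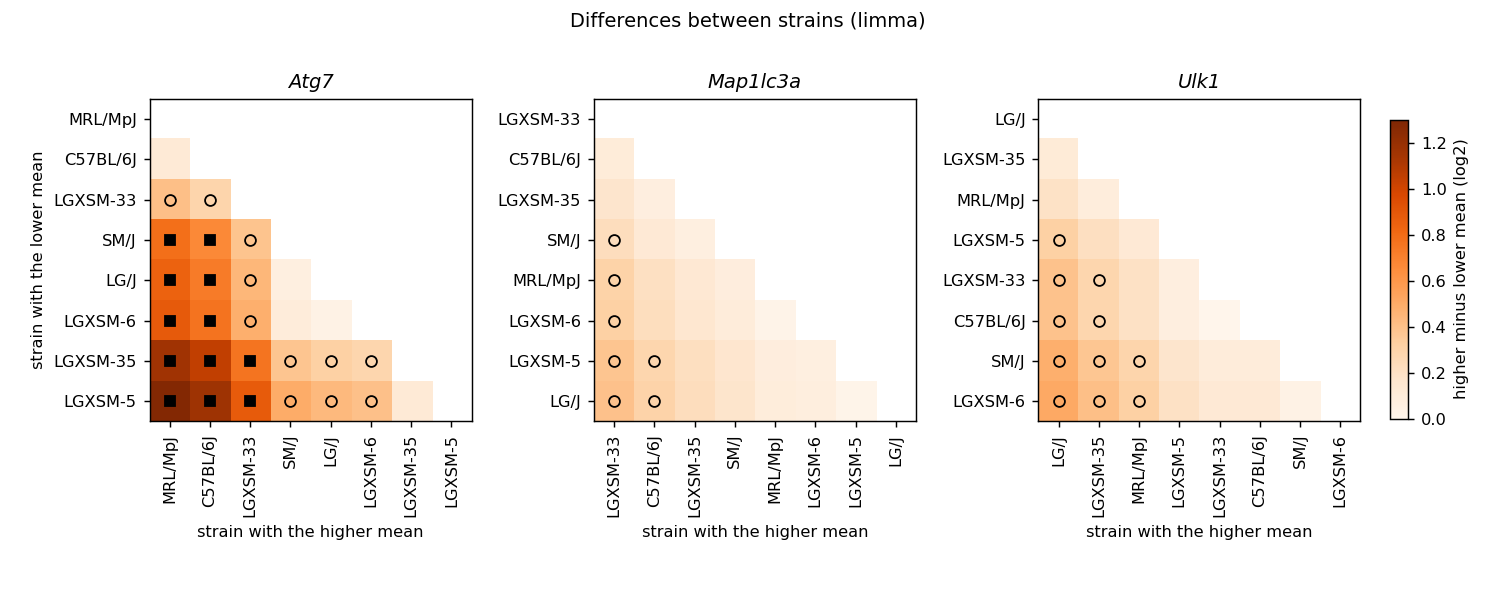
Difference in normalized expression (log2, colour scale from 0 to 1.3) for each pair of strains, with the strains of each panel in order of their mean. Open circles mark an adjusted *P* under 0.05 by limma over assay replicates, and filled squares mark pairs that also passed over means of 3. *Atg7* has 23 marked pairs, of which 12 are squares, whereas *Map1lc3a* has 7 and *Ulk1* 11, all open circles.

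With the deposited values the parents of the recombinant lines, LG/J and SM/J, had nearly the same *Atg7* (log2 difference −0.06, SE 0.10, adjusted *P* = 0.677), and the lines lay on both sides of them. LGXSM-33 was above LG/J by 0.44 (SE 0.09, adjusted *P* = 7.36e-05) and above SM/J by 0.38 (SE 0.09, adjusted *P* = 0.000597). Without Signals 10 to 12 of LGXSM-33 these differences were 0.27 (SE 0.08, adjusted *P* = 0.00630) and 0.21 (SE 0.08, adjusted *P* = 0.0370). LGXSM-5 fell by 0.43 and 0.49 below LG/J and SM/J on the log2 scale (adjusted *P* = 0.000275 and 3.57e-05), and LGXSM-35 by 0.32 and 0.38 (adjusted *P* = 0.00837 and 0.00150). LGXSM-6 passed against neither parent. Of the 268 cases of a line and an mRNA, 14.2% lay outside both parents by this rule, and *Atg7* did so in 3 of 4 lines. On the log2 scale against the mean of the strains, SM/J was at 0.52 and LG/J at −0.0540 with the ratio to *Hprt1*. This difference between the parents passed. Without normalization SM/J was at −0.91 and LG/J at −0.31. The place of LGXSM-33 above both parents also turned with the scaling. LGXSM-33 minus SM/J in *Atg7* was −0.17 with the ratio of the signal to both reference mRNAs (adjusted *P* = 0.394). It was −0.25 with the ratio to *Gapdh* alone and −0.0943 with that to *Hprt1* alone. LGXSM-33 minus LG/J was 0.0170 with the ratio to both and −0.44 with that to *Gapdh* (adjusted *P* = 0.938 and 0.0775), but 0.48 with that to *Hprt1* (adjusted *P* = 0.00684). With slopes on the reference mRNAs estimated within strains, LGXSM-33 passed above LG/J by 0.49 and above SM/J by 0.30 (adjusted *P* = 1.71e-06 and 0.00205). LGXSM-5 and LGXSM-35 were below both parents with each of the ratios, and passed against both with the ratio to both and with that to *Hprt1*. With the ratio to *Gapdh*, LGXSM-5 passed against LG/J (−0.53, adjusted *P* = 0.0461) and LGXSM-35 did not (−0.40, adjusted *P* = 0.136). Neither then passed against SM/J (−0.33 and −0.21). Without normalization both were above SM/J, by 0.45 and 0.72 (adjusted *P* = 0.161 and 0.0218). Their differences from LG/J were then −0.16 and 0.12 (adjusted *P* = 0.652 and 0.741). LGXSM-6 was below SM/J by the ratio to both (log2 difference −0.54, adjusted *P* = 0.00379). With the ratio to *Hprt1* it passed below LG/J and SM/J (−0.61 and −1.18, adjusted *P* = 0.000571 and 1.20e-09). Without normalization it passed above them, by 0.73 and 1.34 (adjusted *P* = 0.0119 and 8.39e-06). Over the means of 3, with the deposited values, the share of cases outside both parents was 0.373%, and no line passed against either parent in *Atg7*. For LGXSM-5, LGXSM-33 and LGXSM-35, the adjusted *P* over means of 3 ran from 0.1002 for LGXSM-5 against SM/J to 0.357 for LGXSM-35 against LG/J. With the deposited values, lines of the cross did differ from each other by both tests. LGXSM-33 exceeded LGXSM-5 by 0.88 on the log2 scale (SE 0.09, adjusted *P* = 1.01e-12; over means of 3, adjusted *P* = 0.00153), a 1.84-fold difference, and LGXSM-35 by 0.76 (SE 0.09, adjusted *P* = 1.60e-10; over means of 3, adjusted *P* = 0.00530). These differences also moved with the scaling. Against the mean of the strains, LGXSM-33, LGXSM-5 and LGXSM-35 were at −0.0336, −0.63 and −0.57 with the ratio to both. With the ratio to *Gapdh* they were at −0.49, −0.57 and −0.45, so that LGXSM-33 was below LGXSM-35.

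*Map1lc3a* spanned 0.39 on the log2 scale (1.31-fold) from LGXSM-33 to LG/J, which placed it 51st of the 67 mRNAs by span. Normalized values of LGXSM-33 ran from −0.0502 to 0.194 (median 0.0549), and Signals 10 to 12 were again its top 3, at 0.194, 0.156 and 0.159. C57BL/6J ran from −0.0201 to 0.0683 (median 0.0377) and LGXSM-35 from −0.0868 to 0.0765 (median 0.0486). The SM/J values, from −0.0668 to 0.225 (median −0.0189), held 1 reading far above the rest, that of Signal 4. MRL/MpJ ran from −0.0887 to 0.0692 (median −0.0510), LGXSM-6 from −0.112 to 0.0641 (median −0.0223), LGXSM-5 from −0.152 to −0.00801 (median −0.0370) and LG/J from −0.154 to 0.0232 (median −0.0656). Every strain overlapped every other strain, and no neighbours in the order of the means differed.

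For *Map1lc3a*, 7 of the 28 pairs of strains passed over assay replicates, against 29.5% of all pairs of the 67 mRNAs, and LGXSM-33 was the higher member in 5 of them. It exceeded LG/J by 0.39 on the log2 scale (SE 0.09, adjusted *P* = 0.000339) and LGXSM-5 by 0.38 (SE 0.09, adjusted *P* = 0.000519). With the deposited values LGXSM-33 was also the 1 line that passed against both parents in *Map1lc3a*, with a difference of 0.22 from SM/J (SE 0.09, adjusted *P* = 0.0469). That difference was 0.0618 with the ratio to both reference mRNAs and −0.0143 with the ratio to *Gapdh*, and did not pass in either (adjusted *P* = 0.686 and 0.938). LGXSM-6 passed below LG/J and SM/J with the ratio to both (−0.37 and −1.04, adjusted *P* = 0.00619 and 5.89e-12). It also did so with the ratio to *Hprt1* (−0.63 and −1.69, adjusted *P* = 0.00138 and 2.72e-13). With the deposited values no pair passed over the means of 3, where the smallest adjusted *P* was 0.138 and 4 of the 28 pairs had an unadjusted *P* under 0.05, against 17.1% of all pairs. Without Signals 10 to 12 of LGXSM-33, C57BL/6J had the highest mean and the span was 0.29. LGXSM-33 then passed against LG/J (0.28, adjusted *P* = 0.0126) and LGXSM-5 (0.26, adjusted *P* = 0.0175) but not against MRL/MpJ (0.19, adjusted *P* = 0.103), LGXSM-6 (0.20, adjusted *P* = 0.0553) or SM/J (0.11, SE 0.09, adjusted *P* = 0.372), and no longer lay outside both parents.

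*Ulk1* spanned 0.51 on the log2 scale (1.43-fold), from LG/J to LGXSM-6, and was 37th of the 67 mRNAs by span. All 9 values of LG/J were above 0, from 0.0488 to 0.183 (median 0.0857). LGXSM-35 ran from −0.0522 to 0.103 (median 0.0850). MRL/MpJ had the widest spread, from −0.129 to 0.191 (median 0.0285), and its blocks did not overlap, with means of 0.166, 0.0365 and −0.0961. LGXSM-5 values were close together, from −0.0455 to 0.0189 (median 0.00640), as were those of C57BL/6J, from −0.0591 to 0.00204 (median −0.0227). LGXSM-33 ran from −0.127 to 0.0730 (median −0.0263), SM/J from −0.231 to 0.0872 (median −0.0513) and LGXSM-6 from −0.140 to 0.00827 (median −0.0619). In SM/J both ends of the range were readings with a signal of 6 or 7, the lowest of any *Ulk1* reading.

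For *Ulk1*, 11 of the 28 pairs passed over assay replicates, again against 29.5% of all pairs, and LG/J was the higher strain in 5 of them. It exceeded LGXSM-6 by 0.51 on the log2 scale (SE 0.09, adjusted *P* = 1.33e-05), with no overlap of readings, and SM/J by 0.48 (SE 0.10, adjusted *P* = 0.000116), with overlap only through Signal 6 of SM/J. The readings of LG/J also did not overlap those of C57BL/6J or LGXSM-5, which made 3 of the 28 pairs without overlap, against 7.25% of all pairs. No pair passed for *Ulk1* over the means of 3, the smallest adjusted *P* was 0.0622 for LG/J against LGXSM-6, and 7 of the 28 pairs had an unadjusted *P* under 0.05, against 17.1% of all pairs. With the deposited values no line lay outside both parents in *Ulk1* by either test. Over assay replicates with the ratio to *Hprt1*, LGXSM-6 passed below LG/J and SM/J (−0.77 and −0.56, adjusted *P* = 3.58e-07 and 0.000124). Without Signals 10 to 12 of LGXSM-33, MRL/MpJ also exceeded LGXSM-33, by 0.29 (adjusted *P* = 0.0191) where the difference had been 0.20.

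*Becn1*, which acts in the step after ULK1, differed in 13 of 28 pairs over assay replicates and in 1 over the means of 3, against 29.5% and 3.73% of all pairs. In the last, LGXSM-35 exceeded LGXSM-6 by 0.61 on the log2 scale (SE 0.17 over means of 3, adjusted *P* = 0.0363). Over the means of 3 this pair did not pass with the ratio (0.56, adjusted *P* = 0.179) or without normalization (0.12, adjusted *P* = 0.919).

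The design sets healer strains against non-healer strains. For *Atg7* the 3 healer means were −0.0509 in LG/J, 0.203 in MRL/MpJ and −0.0616 in LGXSM-6, and the non-healer means were −0.0328 in SM/J, 0.169 in C57BL/6J and 0.0822 in LGXSM-33. The highest of these 6 means was that of a healer and the next that of a non-healer, and the classes overlapped. Healers minus non-healers was −0.14 on the log2 scale (SE 0.25, limma on strain means, adjusted *P* = 0.913), and the two-sided exact permutation *P* over strains was 0.80. Without Signals 10 to 12 of LGXSM-33 the difference was −0.08. It was −0.43 without MRL/MpJ, −0.00679 without LG/J, 0.0109 without LGXSM-6 and 0.0182 without C57BL/6J, and 0.52 without normalization, and passed in none of these. The 2 intermediate healers, at −0.182 and −0.146, were below all 6 of the others. For *Ulk1* the healer means were 0.0934, 0.0354 and −0.0609 in the same order and the non-healer means were −0.0517, −0.0240 and −0.0238. LG/J and MRL/MpJ were above all non-healers and LGXSM-6 below them. The difference was 0.19 (SE 0.14, adjusted *P* = 0.763; exact permutation *P* = 0.40), and it was 0.0678 without LG/J and 0.32 without LGXSM-6.

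*Map1lc3a* was the 1 autophagy mRNA whose classes did not overlap. Its healer means were −0.0522 in LG/J, −0.0249 in MRL/MpJ and −0.0296 in LGXSM-6, all below the non-healer means of −0.00172 in SM/J, 0.0365 in C57BL/6J and 0.0656 in LGXSM-33. The classes of 13.4% of the 67 mRNAs did not overlap. The difference was −0.23 on the log2 scale, or 1.17-fold (SE 0.10, limma adjusted *P* = 0.571). The unadjusted *P* was 0.0454 by limma and 0.10 by the exact permutation test, the smallest that 3 strains against 3 allow. By limma 0% of the mRNAs passed after adjustment and 5.97% had an unadjusted *P* under 0.05. Without Signals 4 to 6 of SM/J its mean was below that of MRL/MpJ and the classes overlapped (exact permutation *P* = 0.20). They also overlapped with the ratio to *Hprt1* alone (exact permutation *P* = 0.20) and without normalization (exact permutation *P* = 0.80). For *Ulk1* the classes did not overlap without normalization, with the healers above (exact permutation *P* = 0.10).

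**Figure D3:**
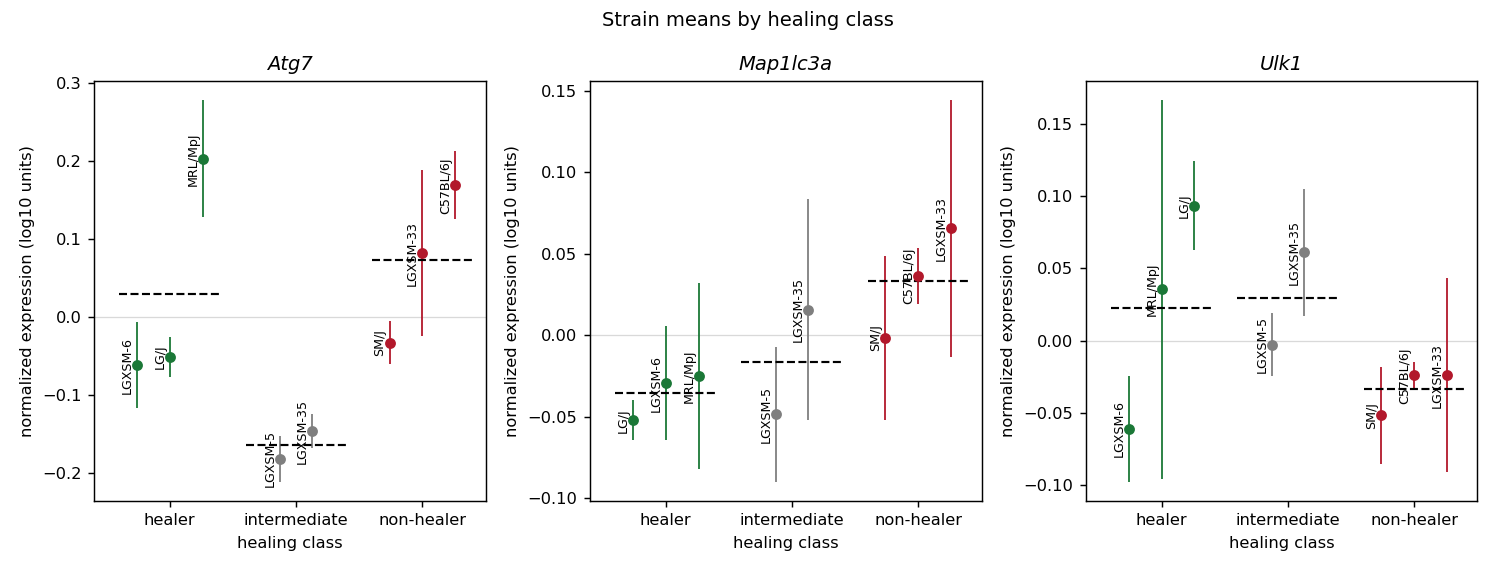
Strain means of normalized expression (log10 units, vertical axis) of the 3 mRNAs by healing class (horizontal axis). Points are strains, vertical lines are the SD of the means of 3 assay replicates of that strain, and dashed lines are class means. For *Map1lc3a* the 3 healer points lie below the 3 non-healer points, though the bars overlap, and for *Atg7* and *Ulk1* the points of these classes overlap.

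LG/J against SM/J compares the parents of the cross, LGXSM-6 against LGXSM-33 compares 2 lines of it, and MRL/MpJ against C57BL/6J compares a healer with a common laboratory strain outside it. Over assay replicates these comparisons passed for 28.4%, 22.4% and 17.9% of the 67 mRNAs, and over the means of 3 for 1.49% each. *Ulk1* was higher in LG/J than in SM/J by 0.48 on the log2 scale, whereas MRL/MpJ minus C57BL/6J was 0.20 (SE 0.10, adjusted *P* = 0.136) and LGXSM-6 minus LGXSM-33 was −0.12 (SE 0.09, adjusted *P* = 0.304). The last of these passed in opposite directions under other scalings, at 0.91 with the ratio to *Gapdh* (adjusted *P* = 7.09e-07), 0.83 without normalization (adjusted *P* = 0.0136) and −0.53 with the ratio to *Hprt1* (adjusted *P* = 8.13e-05), and MRL/MpJ minus C57BL/6J was −0.0117 with the ratio to both and 1.07 without normalization (adjusted *P* = 0.00589). *Atg7* was lower in LGXSM-6 than in LGXSM-33 by 0.48 (log2 difference −0.48, SE 0.08, adjusted *P* = 4.84e-06), but LG/J minus SM/J was −0.06 (adjusted *P* = 0.677) and MRL/MpJ minus C57BL/6J 0.11 (adjusted *P* = 0.396). In *Atg7*, LGXSM-6 minus LGXSM-33 turned to 0.35 with the ratio to *Gapdh* and 0.28 without normalization (adjusted *P* = 0.134 and 0.325), and MRL/MpJ minus C57BL/6J was −0.41 with the ratio to both (adjusted *P* = 0.0406), −0.54 with that to *Gapdh* (adjusted *P* = 0.0391) and 0.67 without normalization (adjusted *P* = 0.0319). Without Signals 10 to 12 of LGXSM-33 LGXSM-6 minus LGXSM-33 was −0.31 for *Atg7* (adjusted *P* = 0.000899), −0.20 for *Map1lc3a* (adjusted *P* = 0.0553) and −0.03 for *Ulk1*. *Map1lc3a* was lower in LGXSM-6 than in LGXSM-33 (log2 difference −0.32, SE 0.08, adjusted *P* = 0.00178). The other 2 differences had the same sign, at −0.17 for LG/J minus SM/J (SE 0.09, adjusted *P* = 0.181) and −0.20 for MRL/MpJ minus C57BL/6J (SE 0.09, adjusted *P* = 0.0962). Without Signals 4 to 6 of SM/J, LG/J minus SM/J was −0.08 (adjusted *P* = 0.572). Without normalization both LG/J minus SM/J and MRL/MpJ minus C57BL/6J of *Map1lc3a* turned in sign, and the latter passed. MRL/MpJ was then at 0.16 and C57BL/6J at −0.64 on the log2 scale against the mean of the strains. With the deposited values none of these passed over the means of 3, where the adjusted *P* of the 3 calls was 0.104, 0.0661 and 0.205. With the ratio, LGXSM-6 minus LGXSM-33 of *Map1lc3a* did (−1.10, adjusted *P* = 0.00843).

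The differences themselves were compared between pairs of strains, and over assay replicates 14.4% of such tests passed. The *Ulk1* difference in the parents exceeded that in the lines by 0.61 on the log2 scale (SE 0.13, adjusted *P* = 0.000386). For *Atg7* the difference of the lines was below that of MRL/MpJ and C57BL/6J by 0.59 (SE 0.13, adjusted *P* = 0.000288) and below that of the parents by 0.42 (SE 0.13, adjusted *P* = 0.0133). Without Signals 10 to 12 of LGXSM-33 the last of these was 0.25 and did not pass (adjusted *P* = 0.120), whereas the others did, at 0.51 for *Ulk1* and 0.42 for *Atg7* (adjusted *P* = 0.00374 and 0.00372). For *Map1lc3a* none of the 3 tests passed (adjusted *P* from 0.496 to 0.893). These results depended on the scaling. For *Atg7*, MRL/MpJ minus C57BL/6J less LGXSM-6 minus LGXSM-33 was −0.0437 with the ratio to both reference mRNAs (adjusted *P* = 0.926), −0.90 with that to *Gapdh* (adjusted *P* = 0.00662) and 0.81 with that to *Hprt1* (adjusted *P* = 0.00265), and the gap between the parents and the lines was 0.18, −0.16 and 0.52, none of which passed. For *Ulk1* the gap between the parents and the lines was 0.40 with the ratio to both (adjusted *P* = 0.0490) and 0.0673 with that to *Gapdh* (adjusted *P* = 0.814). It was 0.74 with the ratio to *Hprt1* (adjusted *P* = 0.000634) and 0.54 with slopes within strains (adjusted *P* = 0.000625). With these slopes the *Atg7* gaps also passed, at 0.70 from MRL/MpJ and C57BL/6J and 0.46 from the parents (adjusted *P* = 1.81e-06 and 0.00145). For *Map1lc3a*, MRL/MpJ minus C57BL/6J exceeded LGXSM-6 minus LGXSM-33 by 0.82 with the ratio to both (adjusted *P* = 7.38e-05) and by 0.52 with slopes within strains (adjusted *P* = 7.95e-05). Over the means of 3, with the deposited values, 1.49% of the tests passed and none of those of the autophagy mRNAs did (adjusted *P* from 0.241 to 0.970).

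How the signal was set against the reference mRNAs moved the 3 mRNAs to different extents. With slopes on the reference mRNAs estimated within strains, the order of the strains in *Atg7* was that of the deposited values. With the ratio to both reference mRNAs, C57BL/6J was above MRL/MpJ, at 0.98 and 0.57 on the log2 scale above the mean of the 8 strains, and LGXSM-33 was at −0.03. LGXSM-5 and LGXSM-35 were the lowest 2 strains in *Atg7* with the deposited values, the within-strain slopes, the ratio to both and the ratio to *Hprt1*. With the ratio to *Gapdh* alone LGXSM-33, at −0.49, lay between them, and without normalization SM/J was lowest, at −0.91. Over the means of 3, *Atg7* passed for strain with the ratio (adjusted *P* = 0.00536, rank 3 of 67) and without normalization (adjusted *P* = 0.0361, rank 36), with 4 and 1 of the 28 pairs called. In all, 12 of the 67 mRNAs passed for strain with the ratio and 39 without normalization.

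For *Map1lc3a* the span depended on which reference mRNA was used. It was 1.82 on the log2 scale with the ratio to *Hprt1*, 0.50 with the ratio to *Gapdh*, where C57BL/6J was highest at 0.28 and SM/J and LGXSM-33 followed at 0.18 and 0.17, and 1.10 with the ratio to both, with LGXSM-33 at 0.62 and SM/J at 0.56 above the mean of the strains. With the ratio to both it passed over the means of 3 (adjusted *P* = 0.00536, rank 4 of 67, with 4 pairs). SM/J and LGXSM-33 were also the strains with the least *Hprt1* for their *Gapdh*, with medians of 69 and 83.3 for *Hprt1* beside 3532.5 and 3962 for *Gapdh*. *Ulk1* kept LG/J as its highest strain with the deposited values, the within-strain slopes, the ratio to both and the ratio to *Hprt1*, at 0.30 to 0.33 above the mean of the strains. C57BL/6J was highest with the ratio to *Gapdh* alone, at 0.39 against 0.34 for LG/J. Without normalization LGXSM-6, the lowest strain in the deposited values, was highest at 0.65, and LG/J was 5th at 0.07.

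**Figure D4:**
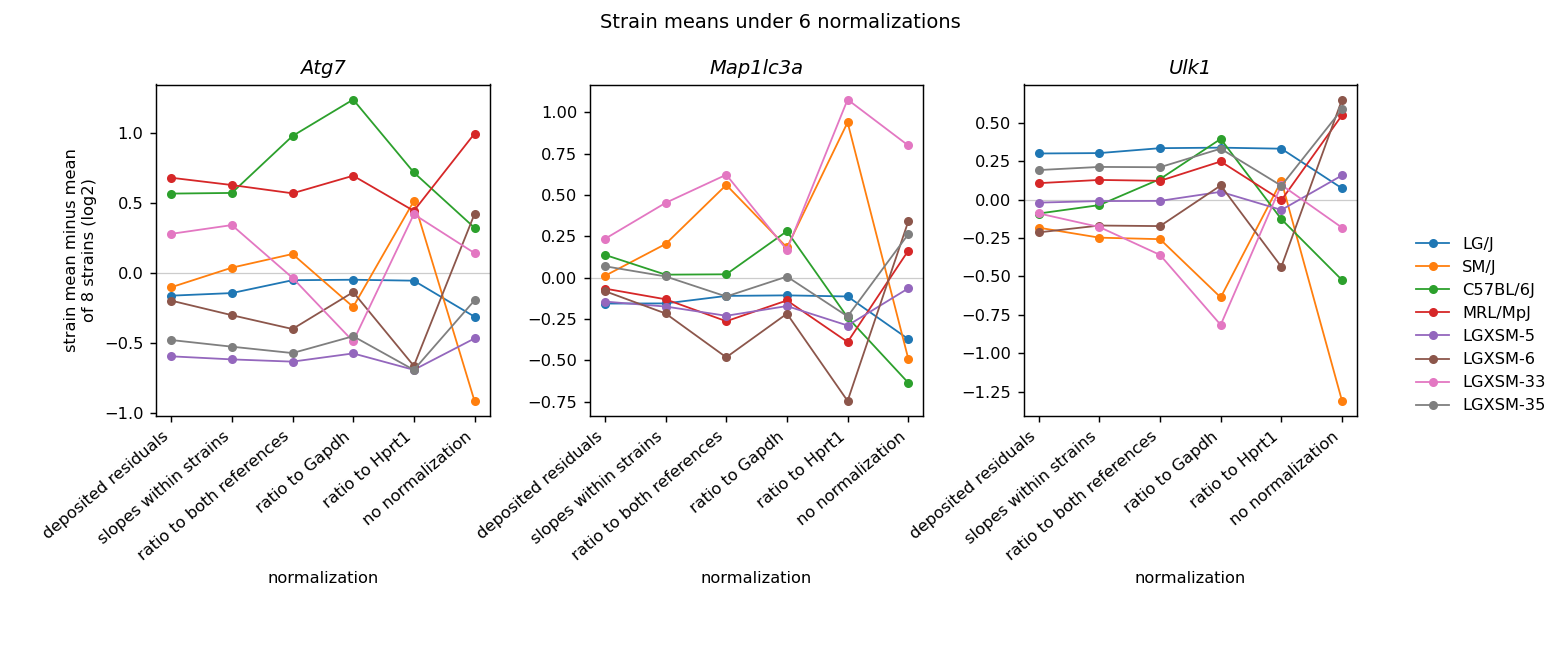
Strain means of the 3 mRNAs, as log2 above the mean of the 8 strains (vertical axis), under 6 ways of normalizing the same signals (horizontal axis). Each line is a strain. In *Atg7* the LGXSM-5 and LGXSM-35 lines stay below −0.4 under every normalization that uses a reference mRNA, in *Ulk1* the LG/J line stays near 0.3 under these, and among these normalizations the SM/J and LGXSM-33 lines move by 0.9 or more in *Map1lc3a*.

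Across the 8 strains, Pearson's *r* over strain means was 0.42 for *Atg7* with *Map1lc3a*, −0.12 for *Atg7* with *Ulk1* and −0.32 for *Map1lc3a* with *Ulk1*. *Becn1* had *r* = 0.51 with *Ulk1*, 0.37 with *Map1lc3a* and −0.0943 with *Atg7*. With the ratio in place of the deposited values these 6 were 0.22, 0.12, −0.56, 0.71, −0.40 and 0.0806. For the deviations of the 78 assay replicates from their strain means *r* was 0.67, 0.36, 0.16, 0.66, 0.33 and 0.47 in the same order, above the value over strain means in every pair but that of *Becn1* with *Map1lc3a*. Readings of the same well share a homogenate and the reference mRNAs, and these values are a description.

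The strain pattern of *Atg7* was most like those of *Mmp9*, which encodes a gelatinase (*r* = 0.84 over 8 strain means, Spearman's rho = 0.76), *Csnk2a1*, a casein kinase subunit (*r* = 0.73), and *Tgfbr1*, a TGF-β receptor (*r* = 0.61). It was least like those of *Lef1*, a transcription factor of Wnt signalling (*r* = −0.75), and *Chrdl1*, a BMP antagonist (*r* = −0.59). With the ratio in place of the deposited values *r* was 0.70 for *Mmp9*, 0.80 for *Csnk2a1* and 0.28 for *Lef1*. *Map1lc3a* was most like *Cdkn1a*, an inhibitor of the cell cycle (*r* = 0.68), *Nfkb1* (*r* = 0.68) and *Csnk2a1* (*r* = 0.57), and least like *Xrcc2* of DNA repair (*r* = −0.71) and *Pcna* of DNA replication (*r* = −0.58). With the ratio these were 0.82, 0.49, 0.07, −0.81 and −0.94. Among the mRNAs most like *Ulk1* were *Wnt16* (*r* = 0.88) and *Pcna* (*r* = 0.56), and it was least like *Trp53* (*r* = −0.81) and *Tgfb1* (*r* = −0.77). With the ratio *r* was −0.12 for *Wnt16* and −0.12 for *Trp53*.

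The homogenates held bone, cartilage, growth plate, synovium and other joint tissue, so that a higher level in the cells and a larger share of the cells that express the mRNA cannot be told apart. All 15 markers fixed for cartilage, growth plate, bone, fat cells and inflammatory cells were listed with a signal above 0. The lowest strain means were 6.01 for *Il6*, 6.93 for *Ihh* and 7.25 for *Retn*, among the lowest signals read, and whether these are above background is not given in the sources used here. The summed strain mean signal was from 3167 in SM/J to 13352 in LGXSM-6 for the 5 cartilage markers, from 60.2 in LGXSM-5 to 217 in LGXSM-6 for the 2 growth plate markers, and from 15659 in SM/J to 33290 in LGXSM-6 for the 3 bone markers. It was from 33.3 in LG/J to 71.9 in LGXSM-33 for the 3 fat cell markers and from 68.2 in LG/J to 309 in LGXSM-35 for the 2 inflammatory markers. No single marker had an *r* beyond 0.7 in either direction with any of the 3 mRNAs over the 8 strain means. The *r* ran from −0.55 to 0.59 for *Atg7*, from −0.57 to 0.46 for *Map1lc3a* and from −0.69 for *Adipoq* to 0.24 for *Ulk1*. The summed normalized level of the inflammatory markers had *r* = −0.704 with *Atg7*, and that of the fat cell markers *r* = −0.69 with *Ulk1*. Singly, the inflammatory markers differed, with *r* = −0.55 for *Ccl3* and −0.0228 for *Il6* with *Atg7*. The part of the marked cells in the strain differences was not tested.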

How the data were processed

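Sections of injured knee joints from 8 strains were read on a branched DNA bead assay (QuantiGene 2.0 Plex) in 2 panels. The authors subtracted background signal, and deposited, per the file headers and the values, the log10 of each signal and a log10 value normalized to the reference mRNAs, which is the residual of the log10 signal on *Gapdh* and *Hprt1* (and *Actb* in panel I). Residuals computed here from the deposited log10 signals differed from them by at most 0.00624 for the 4 autophagy mRNAs. Whether the log10 signals are from before or after background subtraction, and the mouse behind each assay replicate, are not given in the sources used here. A deposited table of the authors' fold changes against C57BL/6J and one of strain averages were not used. Panel I held 33 targets and 76 assay replicates, panel II 34 and 78.

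Strain differences were fitted with limma 3.58.1 in R 4.3.3 per panel, with Benjamini-Hochberg adjustment over the 67 mRNAs, or over 1876 pairs for pairs of strains, at 0.05. Classes were compared with limma on strain means and with a two-sided exact permutation test. The share of variance was a one-way component with a jackknife over strains. *P* values over assay replicates measure the spread between readings, which may be technical. On simulated data with known strain differences, the fits were checked for the size of the difference. The rate of calls without a difference is not reported here. Alternatives were other normalizations, means of 3, a filter on low signal, Tukey's method, leaving out assay replicates or strains, and 7 added after seeing the data. The mRNAs named for likeness were the 3 highest and 2 lowest by *r*, of which 1 is not reported here. Members, lists and tests were chosen with earlier results of these data known. The number of readings limits the precision, and values are bead signals with no read depth.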

Additional observations from a re-analysis of the deposited data

Results flagged for a closer look

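The healer minus non-healer difference was compared between pairs of strains by limma, and 4 such comparisons of the autophagy mRNAs passed over assay replicates, which are repeat readings whose spread may be technical, and none of these passed over means of 3. For *Ulk1*, LG/J minus SM/J exceeded LGXSM-6 minus LGXSM-33 by 0.61 on the log2 scale (adjusted *P* = 0.000386; over means of 3, 0.241). For *Becn1* the same comparison gave 0.57 (adjusted *P* = 0.000413; over means of 3, 0.340) and for *Atg7* 0.42 (adjusted *P* = 0.0133; over means of 3, 0.563; 0.25 with adjusted *P* = 0.120 without Signals 10 to 12 of LGXSM-33). For *Atg7*, MRL/MpJ minus C57BL/6J exceeded LGXSM-6 minus LGXSM-33 by 0.59 (adjusted *P* = 0.000288; over means of 3, 0.252). The last of these was −0.0437 with the ratio to both reference mRNAs (adjusted *P* = 0.926) and −0.90 with that to *Gapdh* (adjusted *P* = 0.00662). With the ratio to both the first 3 were 0.40, 0.37 and 0.18 (adjusted *P* = 0.0490, 0.0823 and 0.620), and with that to *Gapdh* 0.0673, 0.0283 and −0.16, none of which passed at *Gapdh*. In the order given, the 4 were 0.74, 0.70, 0.52 and 0.81 with the ratio to *Hprt1* (adjusted *P* = 0.000634, 0.000309, 0.0734 and 0.00265). With slopes within strains they were 0.54, 0.57, 0.46 and 0.70, and all passed. Of the 201 such tests, 14.4% passed over assay replicates and 1.49% over means of 3.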

How the results depend on the processing

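Over means of 3 consecutive assay replicates, 13 of the 67 mRNAs passed for strain (12 with the ratio and 39 without normalization), and the pairs called were 12 for *Atg7*, 0 for *Map1lc3a* and 0 for *Ulk1*. With means of 3 and the ratio these were 4, 4 and 0, and with means of 3 and no normalization 1, 0 and 1. Over assay replicates the *Atg7* count was 14 with the ratio to *Gapdh*, and the *Map1lc3a* count was 15 with the ratio, 15 with slopes within strains and 16 with the ratio to *Hprt1*. The test beside each span was that for strain, not one of the highest against the lowest strain. Over means of 3 it no longer passed for *Map1lc3a* (span 0.39 log2, or 1.44 without normalization). Nor did it for *Ulk1* (0.51, 0.69 with the ratio, 1.96 without normalization). As a pair, LGXSM-6 against SM/J, the ends of that last span, did pass (adjusted *P* = 0.0369). For *Atg7* the test for strain passed in every alternative that gave one. The median over assay replicates gave the size of the *Atg7* span alone, 1.16.

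The share of variance between strains of *Atg7* was 70.8% with the ratio, 48.3% without normalization, 64.4% with the ratio to *Gapdh*, and over means of 3 64.1% with the ratio and 36.8% without normalization. That of *Map1lc3a* was 73.5% with the ratio, 65.7% with slopes within strains, 75.8% with the ratio to *Hprt1* and 68.9% over means of 3 with the ratio, and that of *Ulk1* 63.9% with the ratio to *Gapdh*.

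Healers minus non-healers (log2) for *Atg7* was 0.52 without normalization, with or without means of 3, and 0.00063 with the ratio to *Gapdh*. It was 0.15 for *Map1lc3a* without normalization and −0.0662 for *Ulk1* with the ratio to *Hprt1*. No class difference passed in any of these.

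LG/J minus SM/J of *Atg7* was 0.60 without normalization, 0.19 with the ratio to *Gapdh* and −0.57, past the threshold, with that to *Hprt1*. MRL/MpJ minus C57BL/6J was −0.41 with the ratio (adjusted *P* = 0.0406, and 0.554 over means of 3), −0.54 with *Gapdh* and 0.67 without normalization (both past the threshold, adjusted *P* = 0.0391 and 0.0319), and −0.27 with *Hprt1*. LGXSM-6 minus LGXSM-33 was 0.28 without normalization and 0.35 with *Gapdh*, and did not pass over means of 3 (−0.48, and −0.37 with the ratio). For *Map1lc3a*, LG/J minus SM/J was −0.67 with the ratio, −0.36 with slopes within strains and −1.05 with *Hprt1*, all past the threshold, and 0.12 without normalization. MRL/MpJ minus C57BL/6J was 0.80 without normalization and −0.42 with *Gapdh*, both past the threshold (adjusted *P* = 0.0242 and 0.00562). LGXSM-6 minus LGXSM-33 did not pass without normalization (−0.46), over means of 3 (−0.32) or without Signals 10 to 12 of LGXSM-33 (−0.20, adjusted *P* = 0.0553), but passed over means of 3 with the ratio (−1.10, adjusted *P* = 0.00843). For *Ulk1*, LG/J minus SM/J did not pass over means of 3 (0.48, 0.59 with the ratio, 1.38 without normalization) or with *Hprt1* (0.21). MRL/MpJ minus C57BL/6J was −0.0117 with the ratio, −0.15 with *Gapdh* and, past the threshold, 1.07 without normalization (adjusted *P* = 0.00589). LGXSM-6 minus LGXSM-33 was 0.19 with the ratio, 0.00978 with slopes within strains and, past the threshold, 0.83 without normalization, 0.91 with *Gapdh* and −0.53 with *Hprt1* (adjusted *P* = 0.0136, 7.09e-07 and 8.13e-05). Apart from LGXSM-6 minus LGXSM-33 of *Map1lc3a* with the ratio, no difference marked here as past the threshold passed over means of 3 where that was run. The cause of these changes was not tested.

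Leaving out 1 strain at a time or 1 Signal number in all strains, healers minus non-healers of *Atg7* ran from −0.43 without MRL/MpJ to 0.0182 without C57BL/6J and was 0.0109 without LGXSM-6. That of *Ulk1* ran from 0.0678 without LG/J to 0.32 without LGXSM-6. The *Ulk1* pairs called ran from 7, without Signal 1, to 13. MRL/MpJ minus C57BL/6J of *Ulk1* ran from 0.13 to 0.27, and passed without Signal 9 (0.27, adjusted *P* = 0.0485). No paired analysis was possible because the class labels carry no replicate number that links strains, and the assay replicate numbers are not stated to mark a shared mouse or batch.

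Strains, not mice, are the replicates of a healing class, with 3 against 3. Which readings within a strain share a mouse is not given in the sources used here, so tests over assay replicates can be too small in *P*. Signals under 10, as in *Ulk1* of SM/J, sit near the lowest values read. Panels were normalized separately, so likeness across panels rests on strain means from separate readings.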
